A study of Homo sapiens with 12 samples.

Results

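The PFKFB family is a set of 4 genes, PFKFB1, PFKFB2, PFKFB3 and PFKFB4, and 6 probes of the array were assigned to them through their RefSeq transcript. The family was chosen by measured values, namely that the probes of PFKFB2 disagreed in the knockdown in HA22T cells, and these 4 genes are 4 of the 20503 genes that the array names in this way. RNA came from HA22T and PLC5, which are human hepatocellular carcinoma cell lines, transfected for 48 h at 10 nM with a pool of siRNAs against GALNT1 (siGALNT1), a transferase that starts O-glycosylation, or with an siRNA that targets no gene (siControl). The 4 groups, HA22T siControl, HA22T siGALNT1, PLC5 siControl and PLC5 siGALNT1, hold 3 one-color arrays each. All cells, controls included, went through lipid transfection with an siRNA, and a change measured at 48 h can come from any effect of the siRNA pool. The labels number the replicates but do not say whether they came from separate cultures, so the p-values measure the spread between these arrays.

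The PFKFB proteins are bifunctional enzymes. One domain, the kinase, makes fructose 2,6-bisphosphate from fructose 6-phosphate, and the other, the phosphatase, breaks it down again. Fructose 2,6-bisphosphate activates phosphofructokinase 1, the committed step of glycolysis, and inhibits fructose 1,6-bisphosphatase, an enzyme of gluconeogenesis, so that in liver the family helps to set the direction of sugar flow. PFKFB1 is known as the form of liver and muscle and PFKFB2 as the form of heart. PFKFB3 is the inducible form with a high kinase activity, which many tumors express, and PFKFB4 was first described in testis. Transcripts of PFKFB3 and PFKFB4 are known to rise in hypoxia.

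PFKFB1 lies on chromosome X and was read by the probe A_24_P203106, designed on NM_002625. PFKFB2 lies on chromosome 1 and was read by A_33_P3300635, assigned to NM_006212, and by A_24_P413669, assigned to NM_001018053, so its probes are annotated to different transcripts of the gene. Both probes of PFKFB3 on chromosome 10, A_24_P206604 and A_24_P261259, carry the same transcript, NM_004566. PFKFB4 on chromosome 3 was read by A_24_P362904, on NM_004567. Each probe had 1 spot per array. A level below is the log2 of the processed signal of the spot minus the log2 of the 75th percentile of its array, so 0 is the brightness of that percentile. Probes bind with different strength, and levels are therefore compared between arrays for 1 probe at a time.

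Between 36679 and 48873 of the 58717 spots that are not controls were well above background on an array. The lowest counts were 36679 in HA22T siGALNT1 replicate 2 and 38756 in HA22T siGALNT1 replicate 3, while replicate 1 of that group had 48208. Replicates correlated at 0.969 to 0.988 across probes. One slide held all 6 HA22T arrays with replicate 1 of both PLC5 groups, and a further slide held the remaining 4 arrays of PLC5. In HA22T the 2 probes of GALNT1 fell by 4.75 (adjusted p = 0.0305, limma) and gave a difference of -5.10 (adjusted p = 0.0709, limma), on the log2 scale. They gave -3.03 (SE 0.488) and -3.72 (SE 0.611) in PLC5 (adjusted p = 1.00 for both, limma), where no probe passed the adjusted threshold. Liver markers separated the lines, since the summed signal of 8 of 8 liver genes, with the 75th percentile of the array as 1, was 2.24 to 2.83 in HA22T and 82.1 to 165 in PLC5. Transcripts of TF and TTR, plasma carrier proteins of hepatocytes, were well above background on at most 1 of 3 arrays in each HA22T group. In contrast, APOA1, SERPINA1 and HNF4A were well above background on 3 of 3 arrays in both HA22T groups. ALB and APOB were so on 3 of 3 HA22T siControl arrays. AFP differed little between the lines, with siControl means of -4.51 in HA22T and -4.21 in PLC5.

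Of the 6 PFKFB probes, 5 were well above background on all 12 arrays. The exception was A_24_P413669 of PFKFB2, which was well above background on 1 of 3 HA22T siControl arrays, on 3 of 3 HA22T siGALNT1 arrays, on 1 of 3 PLC5 siControl arrays and on 0 of 3 PLC5 siGALNT1 arrays. The other PFKFB2 probe, A_33_P3300635, was brighter than 97.5% to 98.7% of the spots of its array. The spot of A_24_P413669 was brighter than 17.3% to 56.6% of them. The plot of PFKFB levels shows all 6 probes.

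**Figure D1:**
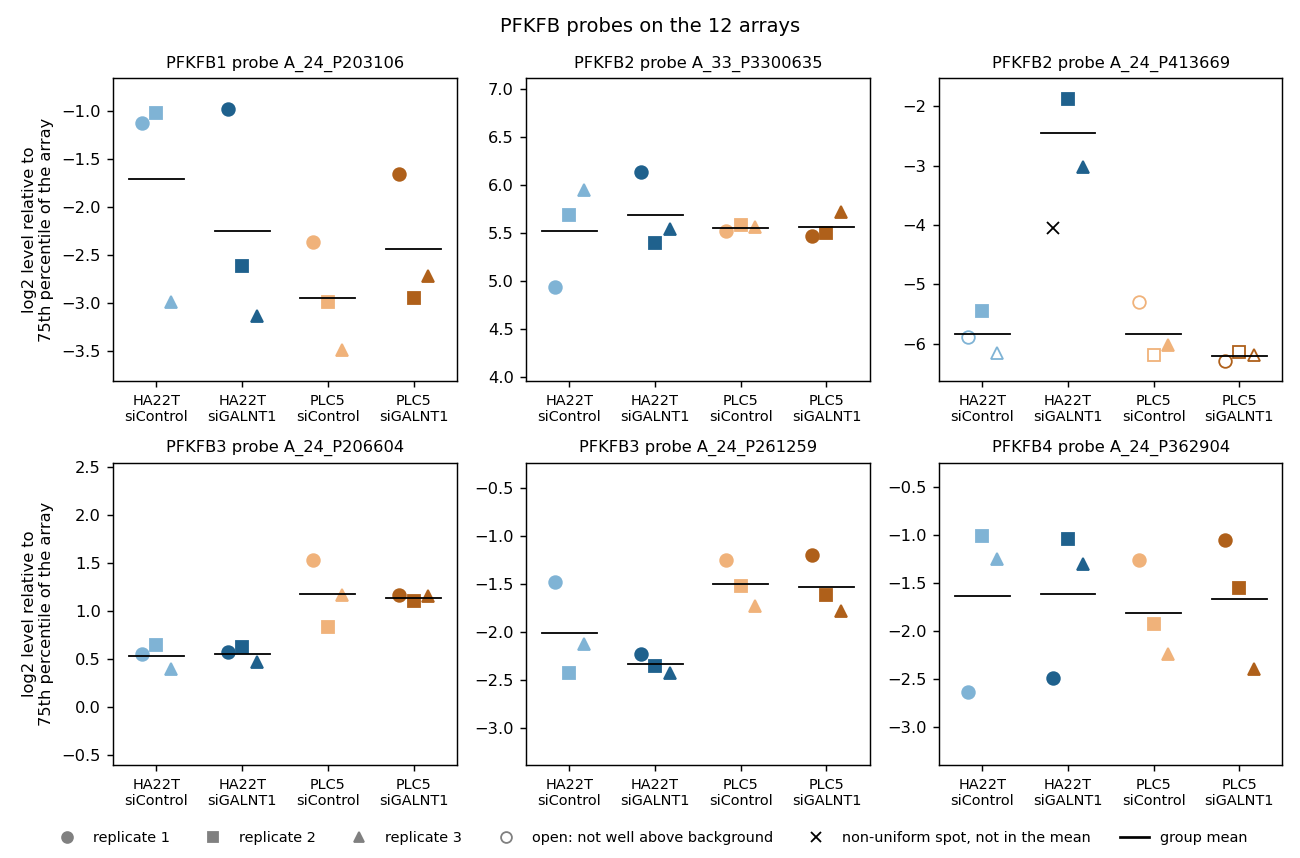
Log2 level of each PFKFB probe relative to the 75th percentile of the array (vertical axes, each panel with its own range) in the 4 groups of 3 arrays. Symbols give the replicate number, open symbols a spot not well above background, the cross a non-uniform spot left out of the mean, and bars the group mean. The PFKFB2 probe A_24_P413669 lies at -1.87 and -3.02 on 2 HA22T siGALNT1 arrays and at -5.30 or lower on all siControl and PLC5 arrays, while A_33_P3300635 lies between 4.94 and 6.13 throughout.

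The 2 probes of PFKFB2 gave different pictures of the knockdown in HA22T, and this is the contrast from which the family was chosen, so its values are a description without a test. The level of A_24_P413669 was -5.90, -5.45 and -6.16 in HA22T siControl replicates 1 to 3. In HA22T siGALNT1 it was -1.87 in replicate 2 and -3.02 in replicate 3. The spot of siGALNT1 replicate 1 was flagged as non-uniform and left out, and its level would have been -4.05. All siGALNT1 values, that of the flagged spot included, were above all siControl values.

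The fitted difference of A_24_P413669, siGALNT1 minus siControl in HA22T, was 3.39 on the log2 scale (SE 0.405, 2 against 3 arrays). As 2 of the 3 siControl spots were not well above background, no fold is given. Probes are counted in a comparison where at least 3 of its 6 arrays show them well above background, which held for 36392 probes here. Of the counted probes, 0.162% were at least 4-fold higher with siGALNT1, and 1 of the 6 PFKFB probes, A_24_P413669, was among them. The family was chosen for the difference of this probe, so its place among them is not a result. It was counted through 1 siControl array and the 2 siGALNT1 arrays with a usable spot. These siGALNT1 arrays, replicates 2 and 3, had the fewest spots well above background of all arrays. Whether this bears on the difference was not tested. Of the 611 probes that were well above background on at most 1 siControl and at least 2 siGALNT1 arrays of HA22T, counted or not, 12.8% were at least 4-fold higher. The size depends on the setting. It was 1.78 with normexp correction, which takes the median spot brightness and adds an offset of 50, and 2.85 with the non-uniform spot kept.

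Pixel values show how dim these spots were. The median pixel of the A_24_P413669 spot had a brightness of 79, 110 and 108 in HA22T siControl replicates 1 to 3, against a local background of 50, 55 and 54. In HA22T siGALNT1 it was 116.5, 515 and 308.5, against 59, 53 and 53. In PLC5 the spot lay between 70.5 and 127 on the 6 arrays. The brightness of siGALNT1 replicates 2 and 3 of HA22T exceeded that of the other 10 arrays, and that of the flagged spot was within the range of PLC5.

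**Figure D2:**
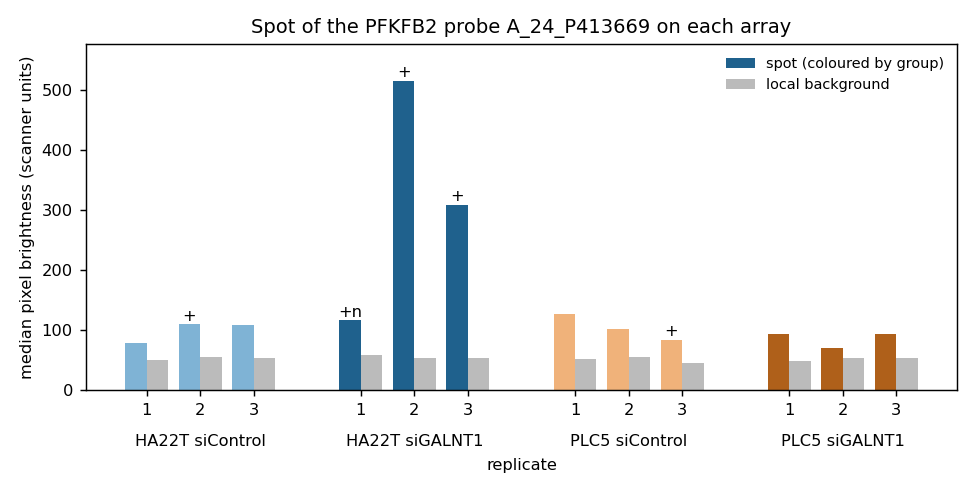
Median pixel brightness of the PFKFB2 probe A_24_P413669 (colored bars) and of its local background (grey bars), in scanner units, on the 12 arrays by group and replicate. A plus marks a spot well above background and the letter n the non-uniform spot. HA22T siGALNT1 replicates 2 and 3 reached 515 and 308.5, and the other 10 arrays stayed between 70.5 and 127.

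The bright PFKFB2 probe, A_33_P3300635, gave no such difference. Its level was 4.94, 5.68 and 5.95 in HA22T siControl and 6.13, 5.39 and 5.54 in HA22T siGALNT1, and the groups overlapped. The difference was 0.17 (SE 0.301). Replicate 1 had the lowest siControl and the highest siGALNT1 level, so the difference between arrays of the same number was 1.19 for replicate 1, -0.29 for replicate 2 and -0.40 for replicate 3.

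Set against each other within an array, A_33_P3300635 was above A_24_P413669 by 11.4 ± 0.665 (SD, n = 3) on the log2 scale in HA22T siControl and by 7.91 ± 0.920 (SD, n = 2) in HA22T siGALNT1. The change of -3.44 in this gap rests on siControl spots of A_24_P413669 of which 2 of 3 were not well above background. It was 11.4 ± 0.505 in PLC5 siControl and 11.8 ± 0.139 in PLC5 siGALNT1 (SD, n = 3), and in PLC5 the gap rests on a dim probe that was not well above background on 5 of the 6 arrays. The gap does not give the amount of either transcript.

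The remaining members in HA22T gave small or scattered differences. PFKFB1 had a level of -1.12, -1.01 and -2.98 in siControl and of -0.98, -2.62 and -3.13 in siGALNT1, with a difference of -0.54 (SE 0.654). The first PFKFB3 probe, A_24_P206604, was 0.55, 0.64 and 0.40 in siControl and 0.57, 0.62 and 0.47 in siGALNT1, so that its difference was 0.025 (SE 0.234). The second, A_24_P261259, was -1.47, -2.43 and -2.12 in siControl and -2.23, -2.35 and -2.42 in siGALNT1, with a difference of -0.33 (SE 0.290). For PFKFB4 the difference was 0.018 (SE 0.534). In all these cases the groups overlapped.

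The knockdown in PLC5 is a comparison that the choice of the family did not use. It asks whether GALNT1 siRNA changed PFKFB transcripts in the other line. With limma, 0 of the 5 counted PFKFB probes had an adjusted p below 0.05, 0 had an unadjusted p below 0.05, and 0 separated the groups without overlap. Over all 38151 counted probes, 0% were called at the adjusted threshold, 1.33% had an unadjusted p below 0.05, and 4.1% of those with all values separated the groups. The adjusted threshold thus missed the targeted gene GALNT1 too, so it cannot show that PFKFB transcripts stayed unchanged. With Benjamini-Hochberg adjustment, the methods' t-test called 0 of the 5 PFKFB probes as well.

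PFKFB1 had the largest of these PLC5 differences. Its level was -2.36, -2.98 and -3.48 in PLC5 siControl and -1.65, -2.94 and -2.71 in PLC5 siGALNT1. The difference was 0.51 (SE 0.654, adjusted p = 1.00, limma) with a 95% interval of -0.93 to 1.95. This interval still holds a rise of 2-fold, which is 1 on the log2 scale. Same-numbered arrays differed by 0.72, 0.039 and 0.77, but the numbers were not taken as pairs in PLC5.

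The bright PFKFB2 probe was the steadiest of the family in PLC5. A_33_P3300635 had a level of 5.52, 5.58 and 5.56 in siControl and of 5.46, 5.50 and 5.72 in siGALNT1. Its difference was 0.0075 (95% interval -0.65 to 0.67). The dim probe A_24_P413669 was -5.30, -6.19 and -6.02 in PLC5 siControl and -6.29, -6.14 and -6.20 in PLC5 siGALNT1, and it was not counted in this line.

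PFKFB3 and PFKFB4 also overlapped between the PLC5 groups. PFKFB3 differed by -0.041 (95% interval -0.55 to 0.47) by A_24_P206604 and by -0.027 (95% interval -0.66 to 0.61) by A_24_P261259. The gap between the 2 PFKFB3 probes was 2.68 ± 0.288 in siControl and 2.66 ± 0.285 in siGALNT1 (SD, n = 3), with an exact permutation p of 1 (two-sided, smallest possible 0.1). PFKFB4 differed by 0.14 (95% interval -1.03 to 1.32).

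**Figure D3:**
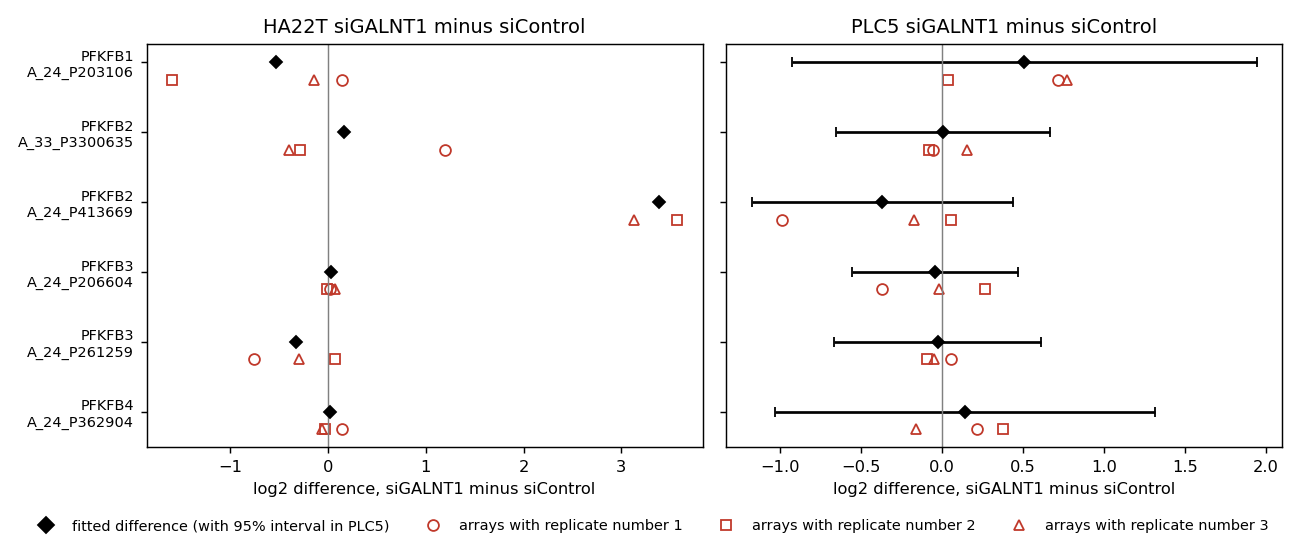
Log2 difference of the PFKFB probes, siGALNT1 minus siControl, in HA22T (left) and PLC5 (right, on a narrower axis). Diamonds give the fitted difference, in PLC5 with its 95% interval from the limma fit, and open symbols the differences between arrays of the same replicate number. In HA22T the PFKFB2 probe A_24_P413669 lies at 3.39, with 2 same-number differences because a spot was left out, and in PLC5 all intervals hold 0.

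Replicate number and level went together for PFKFB4. In HA22T its level was -2.64 in siControl and -2.49 in siGALNT1 for replicate 1, -1.02 and -1.05 for replicate 2, and -1.25 and -1.31 for replicate 3. In PLC5 it was -1.27 and -1.05, then -1.93 and -1.56, then -2.24 and -2.40. Arrays that share a number lay within 0.38 of each other in both lines, while arrays of 1 group spread over 0.97 to 1.62. PFKFB1 showed this in part, with same-number differences of 0.14, -1.60 and -0.14 in HA22T and of 0.72, 0.039 and 0.77 in PLC5. The labels give only the numbers, and whether same-numbered arrays shared a step is not given in the sources used here.

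**Figure D4:**
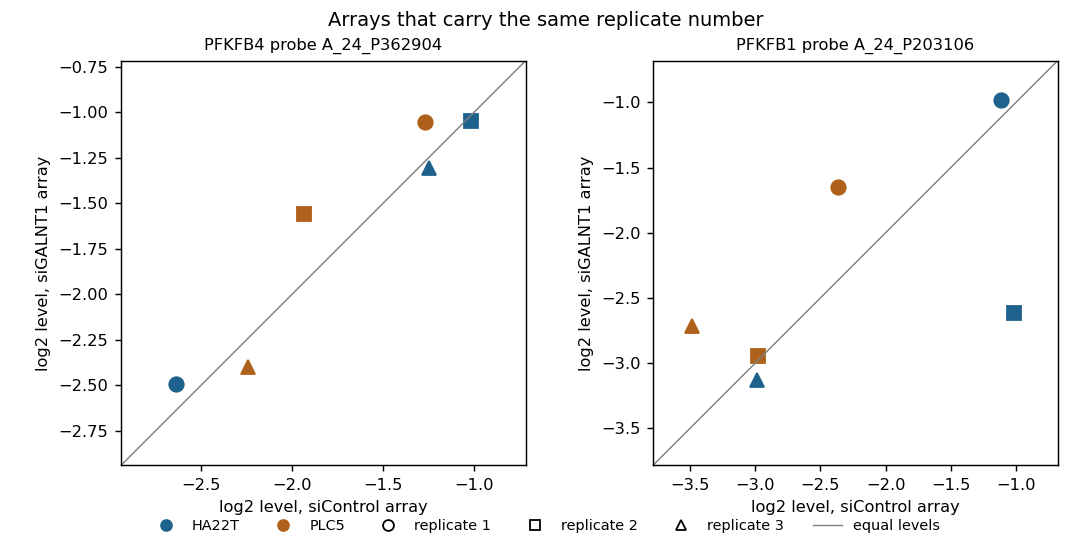
Log2 level of PFKFB4 (left) and PFKFB1 (right) on the siGALNT1 array (vertical) against the siControl array (horizontal) with the same replicate number, for HA22T (blue) and PLC5 (brown). The line marks equal levels. The 6 PFKFB4 points lie within 0.38 of the line, and the PFKFB1 point of HA22T replicate 2 lies farthest below it, with a difference of -1.60.

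Of the 5 counted probes, those of PFKFB3 had the lowest p-values in siGALNT1 and A_24_P206604 the lowest in siControl, and none passed the threshold between the lines. In the siControl arrays A_24_P206604 was 0.55, 0.64 and 0.40 in HA22T and 1.53, 0.83 and 1.17 in PLC5, so all 3 HA22T levels were below all 3 PLC5 levels. HA22T minus PLC5 was -0.65 (SE 0.234, 95% interval -1.16 to -0.14), with an unadjusted p of 0.0177 and an adjusted p of 0.0712 in limma. A_24_P261259 was -1.47, -2.43 and -2.12 in HA22T and -1.25, -1.52 and -1.73 in PLC5, and these levels overlapped. Its difference was -0.51 (SE 0.290, adjusted p = 0.259, limma).

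The siGALNT1 arrays give the comparison of the lines again, on other arrays. A_24_P206604 was 0.57, 0.62 and 0.47 in HA22T and 1.16, 1.099 and 1.15 in PLC5, a difference of -0.58 (SE 0.234, adjusted p = 0.0968, limma). A_24_P261259 was -2.23, -2.35 and -2.42 in HA22T and -1.20, -1.61 and -1.77 in PLC5, a difference of -0.81 (SE 0.290, adjusted p = 0.0678, limma). Neither probe overlapped between the lines here, and the exact permutation p was 0.1 for each, the smallest that 3 against 3 arrays allow.

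Over the whole family, 0 of 5 counted probes had an adjusted p below 0.05 between the lines in siControl and 0 of 5 in siGALNT1, where 22% and 22.9% of all counted probes did. At an unadjusted p below 0.05 in limma there were 1 of 5 and 2 of 5 PFKFB probes, all of PFKFB3, beside 33% and 35.7% of all counted probes. The lines did not overlap for 1 of 5 and 2 of 5 probes, against 42.3% and 39.8% of probes with all values. These counts out of 5 probes lie near or below the shares over the whole array. With Benjamini-Hochberg adjustment, the methods' t-test called 0 of 5 in siControl and 1 of 5, A_24_P206604, in siGALNT1.

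The slide coincides in part with the line. Within the slide that holds both lines, 3 HA22T arrays stand against 1 PLC5 array, and HA22T minus PLC5 was -1.01 for A_24_P206604 and -0.76 for A_24_P261259 in siControl, and -0.61 and -1.14 in siGALNT1. With the slide as a block A_24_P261259 passed in siGALNT1 (adjusted p = 0.0385, limma). A_24_P206604 passed in siControl when PLC5 siControl replicate 2 was left out, with -0.82 (adjusted p = 0.0474, limma).

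The other members did not separate the lines. HA22T minus PLC5 was 1.24 for PFKFB1 in siControl (SE 0.654, 95% interval -0.20 to 2.68, adjusted p = 0.220, limma) and 0.19 in siGALNT1, and within the shared slide it was 0.66 and -0.59. The bright PFKFB2 probe differed by -0.033 and 0.13, and PFKFB4 by 0.18 and 0.053. The gap between the PFKFB3 probes was 2.54 ± 0.522 in HA22T siControl and 2.68 ± 0.288 in PLC5 siControl (SD, n = 3), a difference of -0.14 with an exact permutation p of 0.7 (two-sided).

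The dim PFKFB2 probe differed between the lines in the siGALNT1 arrays, which include those that chose the family. Its mean level in HA22T siGALNT1 was -2.45 over the 2 arrays with a usable spot, and -2.98 with the non-uniform spot kept. The mean level in PLC5 siGALNT1 was -6.21. As the probe was not well above background on any PLC5 siGALNT1 array, no fold is given. These levels come from the processed signal and not from normexp. No test is given for this difference. In siControl the HA22T and PLC5 means of this probe, -5.83 and -5.84, were both near background.

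**Figure D5:**
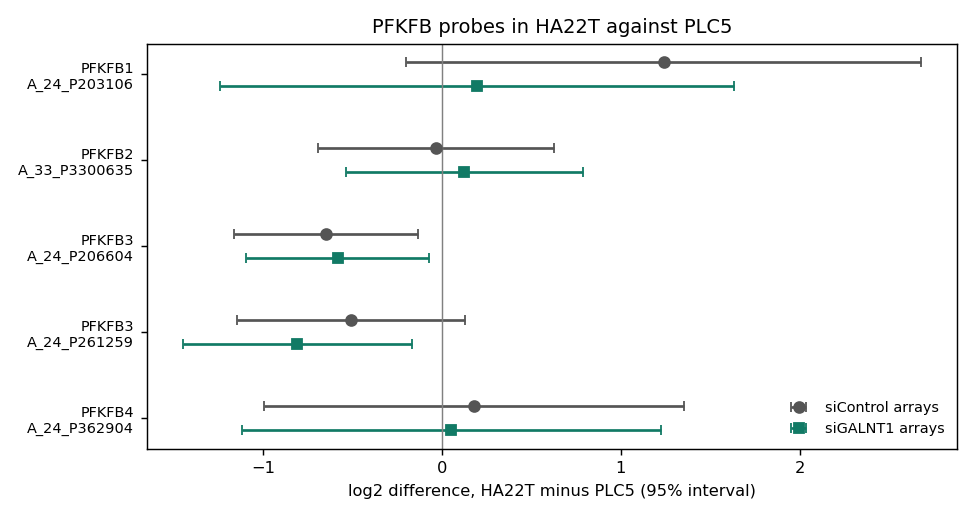
Log2 difference, HA22T minus PLC5, of the 5 PFKFB probes counted in these comparisons, with 95% intervals of the limma fit, for siControl arrays (circles) and siGALNT1 arrays (squares). Both PFKFB3 probes lie below 0 in both sets, between -0.81 and -0.51, and 3 of their 4 intervals leave out 0, as do none of the other 6.

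Markers of other cell types were set beside these values. Of 6 markers of leukocytes, endothelium and fibroblasts, 5 had a probe with values on all arrays, and their summed signal was 24.4 to 44.0 in HA22T siControl, 38.2 to 65.9 in HA22T siGALNT1, 35.4 to 51.1 in PLC5 siControl and 27.5 to 41.6 in PLC5 siGALNT1. PTPRC, a leukocyte phosphatase, was read in this sum by a probe well above background on all 12 arrays, with a level of 4.25 to 6.02. This probe made up most of the sum in every group. The 3 other PTPRC probes had a usable spot well above background on 6, 5 and 0 arrays. The probe with 5 such arrays had levels of 1.64 to 4.14, and the probe with 0 had levels of -8.63 to -5.94. PECAM1, an endothelial adhesion molecule, was -3.16 in HA22T and 2.25 in PLC5 (siControl means). The other endothelial marker, CDH5, was similar in the lines, at -3.08 and -2.76. The fibroblast marker DCN was -4.22 and -3.85, and the leukocyte marker CD68 was -0.49 and 0.70. The part of these signals in the PFKFB3 difference was not tested.

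The direct partners of the family were read next. Phosphofructokinase 1 is made of subunits from PFKL, PFKM and PFKP, FBP1 and FBP2 are fructose 1,6-bisphosphatases, and TIGAR is a phosphatase that also degrades fructose 2,6-bisphosphate. By the brightest probe of each gene, 5 of these 6 genes were counted, and 0 of 5 passed in any of the 4 comparisons with limma. Of all counted probes, 22% and 22.9% passed between the lines, and in the knockdown 0.00275% in HA22T and 0% in PLC5. At an unadjusted p below 0.05 in limma there were 0 of 5 in both comparisons of the lines and in the PLC5 knockdown. The shares of all counted probes were 33% and 35.7% between the lines and 1.33% in the PLC5 knockdown. Between the lines in siControl, HA22T minus PLC5 was -0.28 for PFKL, -0.20 for PFKM, 0.14 for PFKP, -0.26 for FBP1 and -0.58 for FBP2. The TIGAR probe was well above background on 1 of the 6 siControl arrays and was not counted.

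Other genes of glucose uptake and glycolysis did differ between the lines. Of 18 counted genes for glucose transport and glycolysis, 6 were higher and 1 was lower in HA22T in siControl, beside 11% and 11% of all counted probes, with a median difference of 0.43 beside 0.042 over all counted probes. HK1, a hexokinase, was higher by 3.35, and LDHB, a subunit of lactate dehydrogenase, by 2.15. ENO2, an enolase named for neurons, was higher by 4.47, with PLC5 siControl well above background on 1 of 3 arrays. SLC2A2, the glucose transporter of hepatocytes, was at least 11.1-fold lower in HA22T, where it was not well above background on any siControl array. It is the 1 lower gene and was counted only through the 3 PLC5 siControl arrays, where it is high. Its call is therefore no separate support for the difference. Folds given as at least set the mean of the brighter group against a limit for the dimmer group. On each array that limit was the higher of the dim spot itself and the faintest signal well above background. They use the processed signal and not normexp.

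In the siGALNT1 arrays 5 of 19 counted glycolysis genes were higher and 2 were lower in HA22T, beside 9.79% and 13.1% of all counted probes, and the median difference was 0.15 beside 0.10 over all counted probes. HK1 and LDHB were again higher, by 3.40 and 1.83, ENO2 was at least 23.1-fold higher and SLC2A2 at least 6.05-fold lower. In these arrays ENO2 was counted only through HA22T and SLC2A2 only through PLC5, the line where each is high. Both are included in the counts of higher and lower genes. In the knockdown 0 of 17 counted genes of this list passed in HA22T and 0 of 18 in PLC5, where 0.00275% and 0% of all counted probes passed, and the medians of the list were -0.18 and 0.093. At an unadjusted p below 0.05 in limma there was 1 of 18 in PLC5, beside 1.33% of all counted probes there.

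A list of 13 genes that act on PFKFB enzymes or transcripts was read in the same way. It holds the hypoxia factors HIF1A and EPAS1, kinases that phosphorylate PFKFB proteins, and ubiquitin ligase subunits that act on PFKFB3. In siControl 4 were higher and 2 lower in HA22T, beside 11% and 11% of all counted probes. In siGALNT1 1 was higher and 2 were lower, beside 9.79% and 13.1%. The differences of the list had medians of 0.61 and 0.33 beside 0.042 and 0.10 over all counted probes. HIF1A was higher in HA22T by 2.49 in siControl and by 2.35 in siGALNT1, whereas EPAS1 was lower in both, with -1.29 in siControl (adjusted p = 0.00457, limma) and an adjusted p of 0.00181 in siGALNT1. FZR1, which directs PFKFB3 to degradation, was higher by 1.62 in siControl (adjusted p = 0.0198, limma), and its value in siGALNT1 was 1.31 (adjusted p = 0.0509). In the knockdown 0 of 13 passed in either line with limma, where 0.00275% of all counted probes passed in HA22T and 0% in PLC5. In PLC5 0 of 13 had an unadjusted p below 0.05 in limma, beside 1.33% of all counted probes.

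Genes whose level followed each PFKFB gene most closely over the 12 arrays were ranked among 16396 genes by Pearson's r, with the brightest probe of each gene. For PFKFB1 these were CHST6 (r = 0.917), SAMSN1 and CIB4. For PFKFB2, read from A_33_P3300635, they were TRPC6 (r = 0.855), ELOA-AS1 and CATSPERZ. PFKFB3 was followed by CCDC34 (r = 0.961), MED7 and PPIB, and PFKFB4 by INSIG2 (r = 0.926) and PLPPR2. The 12 arrays share cell lines, slides and replicate numbers, and the values describe likeness of level only. For the dim PFKFB2 probe, over the 11 arrays with a value, the 3 probes most like it (r = 0.919 to 0.961) had no gene name here.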

How the data were processed

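Total RNA of the 12 samples was labeled and hybridized to one-color Agilent SurePrint G3 8x60K arrays. The deposited intensity values are the processed signal of Feature Extraction 10.5.1.1, already background-subtracted by the software, together with median pixel brightness inside and around every spot. The authors also deposited a log2 table, scaled to the 75th percentile, which served as an alternative and still holds non-uniform spots. Here the log2 processed signal was set relative to the 75th percentile of all 58717 spots that are not controls, non-uniform spots were left out, as the methods ask, and spots of a probe were averaged (50599 probes). RefSeq accessions named 28174 probes through a GRCh38.p14 table. The array was annotated on an older build, so no coordinates are given.

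All 4 groups were fitted together with limma 3.58.1 (lmFit, eBayes) in R 4.3.3, with Benjamini-Hochberg adjustment within counted probes and a threshold of 0.05. The study's methods do not name the test for arrays. Student's t-test, which they list, stands for it and is called the methods' t-test. Its p-values were adjusted here in the same way as those of limma. The study instead asked for a fold change above 1.5 and a p below 0.05. Calls by that criterion are not given here. For genes with several probes, the brightest probe that had values in all groups was used. Every PFKFB probe is named, with GALNT1, the direct partners, up to 6 called pathway genes of largest difference in each comparison, and the 3 genes most alike each member, apart from items that are not reported here. The PFKFB genes and all gene lists were chosen with earlier results of these data known. Same-numbered siControl and siGALNT1 arrays deviated together in HA22T (correlations of 0.531, 0.262 and 0.340), and this pairing comes from the values. The number of arrays limits the precision.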

Additional observations from a re-analysis of the deposited data

Results flagged for a closer look

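The spot of the PFKFB2 probe A_24_P413669 in HA22T siGALNT1 replicate 1 was left out of the comparisons, because it was flagged as non-uniform, and it held a signal. It entered only where non-uniform spots were kept and with the deposited log2 values. Its log2 level was -4.05, which is above the levels of all 3 HA22T siControl arrays (-6.16 to -5.45), and it was well above background. Its median pixel had a brightness of 116.5, against 108 and 110 in siControl replicates 3 and 2, so the median pixel of this spot was close to that of siControl.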

How the results depend on the processing

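Between the lines, the number of PFKFB probes with an adjusted p below 0.05 moved from 0 to 1, of PFKFB3 each time. In siControl this was A_24_P206604 with quantile normalization (1 of 5) and with eBayes with a trend (1), and in siGALNT1 it was A_24_P206604 with quantile normalization (1) and the methods' t-test (1), and A_24_P261259 with a trend (1), with the prior from counted probes (1) and with the slide as a block (1). Leaving out single arrays gave 0 to 1 in siControl, with 1 without PLC5 siControl replicate 2, and 0 to 1 in siGALNT1, with 1, A_24_P261259, without HA22T siControl replicate 1, an array that enters only through the estimate of the spread. Both PFKFB3 probes stayed lower in HA22T in each of 19 other settings, from -0.84 to -0.47 in siControl and from -0.77 to -0.36 in siGALNT1 for A_24_P206604, with adjusted p from 0.0356 to 0.210 and from 0.0132 to 0.330, the highest with a 75th percentile over unflagged spots, a setting chosen after seeing the data. For A_24_P261259 they ran from -0.80 to -0.30 and from -1.10 to -0.54, with adjusted p from 0.0887 to 0.569 and from 0.0385 to 0.198. The cause of these changes was not tested.

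The HA22T difference of the PFKFB2 probe A_24_P413669 was positive in each alternative run. It was 1.78 with normexp and 2.81 to 3.96 when single HA22T arrays were left out, lowest without siGALNT1 replicate 2 and highest without siGALNT1 replicate 3. The change of the gap between the PFKFB2 probes was -1.59 with normexp and -4.09 to -2.79 with single arrays left out. Normexp used the median spot brightness with an offset of 50. The filter that asks for all 6 arrays gave no value for this probe.

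Differences near 0 changed sign. For the PFKFB3 probe A_24_P206604 in PLC5 normexp gave 0.047, and the change of the gap between the PFKFB3 probes there became 0.090. For the PFKFB2 probe A_33_P3300635 quantile normalization gave -0.033 in PLC5 and -0.17 between the lines in siGALNT1, and in siControl the value was 0.074 with median scaling, 0.0060 with the deposited values, 0.034 with the slide as a block and 0.076 with a 75th percentile over unflagged spots. With the slide as a block PFKFB4 gave -0.40 between the lines in siControl and -0.53 in siGALNT1, and PFKFB1 gave -0.49 in siGALNT1.

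With single arrays left out, the sign also turned as follows. In PLC5 the range was -0.071 to 0.057 for A_33_P3300635, -0.21 to 0.14 for A_24_P206604, -0.19 to 0.097 for A_24_P261259 and -0.16 to 0.51 for PFKFB4, and the PFKFB3 gap changed by -0.18 to 0.14. Between the lines in siControl it was -0.25 to 0.26 for A_33_P3300635 and -0.13 to 0.68 for PFKFB4, and the PFKFB3 gap differed by -0.41 to 0.12. In siGALNT1 it was -0.44 to 0.64 for PFKFB1, -0.095 to 0.27 for A_33_P3300635 and -0.31 to 0.49 for PFKFB4. None of these had an adjusted p below 0.05. In HA22T, where no test was made, the knockdown difference was -0.13 to 0.38 for A_33_P3300635, -0.48 to 0.46 for PFKFB4 and -0.041 to 0.080 for A_24_P206604. It stayed negative there for PFKFB1, at -1.18 to -0.092, and for A_24_P261259, at -0.54 to -0.059.

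With the replicate number as a block the PFKFB2 difference in HA22T was 3.35 (SE 0.348), and in PLC5 0 of 5 PFKFB probes passed. It was run for the knockdown comparisons only, and of these only PLC5 was tested, where no call changed. In PLC5 the correlations of same-numbered arrays were 0.572, 0.0374 and 0.184, so the numbers were not taken as pairs there, and only replicate 1 correlated best with its own number. The standard error of PFKFB4 fell from 0.534 to 0.210 under the block.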
